A study of Mus musculus with 22 samples.

Results

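The comparison follows the anterior neural tube of arsenic-exposed mouse embryos over 12 h, from GD9:00 (gestational day 9, hour 0) to GD9:12 (day 9, hour 12). Its members are the 7 arrays whose titles name a treated neural tube at these stages, 3 at GD9:00 and 4 at GD9:12, out of 22 arrays in the series. All embryos, controls included, came from dams that lack Folr2, the gene of a membrane protein that binds folate (the labels also write Folbp2 nullizygous). The dams of the treated embryos were injected into the abdomen with sodium arsenate, 9.6 mg of arsenic per kg of body weight, at hour 12 of gestational days 7 and 8, so that the embryos were taken 12 h and 24 h after the second dose. The controls at the same stages, 4 arrays at GD9:00 and 3 at GD9:12, came from dams given water at 10 µL per g. The labels give no strain, sex or litter, and no group from dams with Folr2 was used here, so every difference below belongs to embryos of dams that lack Folr2. The labels speak of RNA taken from each embryo's anterior neural tube, but do not say which arrays share a dam, and the p-values therefore measure the spread between these samples.

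Over this time the cranial neural folds finish closing in the mouse, and the closed tube becomes a regionalised brain primordium. Zic and Sox transcription factors mark neural progenitors, En2 marks the midbrain and anterior hindbrain, and Fgf and Wnt ligands from signalling centres such as the midbrain-hindbrain boundary pattern the tissue. Inorganic arsenic binds thiols and causes oxidative and protein-folding stress, to which cells respond through NRF2 (antioxidant genes such as Hmox1), ATF4 (amino acid and redox genes such as Asns and Chac1) and heat shock factors.

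Folr2 lay at percentile 2.93 of mean intensity on the array and was too dim to be tested, with log2 intensities of 6.90, 6.80 and 6.86 at GD9:00 and of 6.97, 7.08, 7.06 and 7.47 at GD9:12. All log2 intensities are after quantile normalisation of the 22 arrays, on a scale whose median over all probes is 7.53 and whose lowest 5% of values lie below 6.98. The deposited intensities of the 7 arrays ran from 87 to 73200, with array medians between 153 and 236. Between arrays of GD9:12 the log2 values correlated across probes with r from 0.944 to 0.979. At GD9:00 replicates 1 and 2 correlated at 0.979, and replicate 3 stood apart from both, at 0.928 and 0.905. Neural progenitor genes, as a check of the dissection, were present at both stages: 18 of the 19 on the array could be tested, and their summed normalised intensity ran from 11685 to 15135 at GD9:00 and from 15897 to 19258 at GD9:12. Such a sum leans on its bright members. Of the 18 genes, 7 were higher at GD9:12 and 11 lower, with a median log2 difference of -0.04. Pax3, Sox2, Nes and Vim, which mark neuroepithelium, had mean log2 intensities over all arrays of 10.34, 8.51, 9.41 and 10.73.

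The stages also differed in sex-linked RNA. Xist, the RNA made from an inactive X chromosome in female cells, read 9.77, 10.08 and 10.35 on the GD9:00 arrays and 7.12, 6.93, 7.15 and 7.05 at GD9:12. Eif2s3y, a Y-linked translation factor, read 7.17, 7.01 and 7.18 at GD9:00 and 7.62, 8.14, 7.82 and 7.51 at GD9:12. The groups did not overlap for either gene, and the exact permutation test over the 7 arrays (two-sided) gave p = 0.0286 for each, the smallest value that 35 assignments allow. Stage and these sex markers coincide on all 7 arrays and cannot be told apart, whereas the controls were mixed at both stages (Xist 8.71, 7.20, 7.12 and 7.10 at GD9:00 and 11.34, 6.99 and 6.88 at GD9:12). X-linked probes made up 3.19% of the called probes with a known chromosome (9 of 282) and 3.51% of those tested (254 of 7246).

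Between GD9:00 and GD9:12 the arsenic-exposed neural tube gained RNA of Zic1, En2, Fabp7, Fgf18 and the blood gene Hba-a1, and lost RNA of the heart genes Myl7 and Actc1, of the epithelial keratin Krt18, and of Ldha, Pomp, Atp5b and Eef2, which serve lactate metabolism, proteasome assembly, ATP synthesis and translation. Of 7833 probes tested, 304 (3.88%) passed an adjusted p of 0.05 (limma, Benjamini-Hochberg over all tested probes), 149 higher (1.90%) and 155 lower (1.98%) at GD9:12. Of these, 73 were at least 2-fold higher and 71 at least 2-fold lower, and on 300 the arrays of the stages did not overlap. Over all tested probes, the arrays did not overlap on 695 that were higher (8.87%) and on 726 that were lower (9.27%). The median difference of all tested probes was -0.02 (log2) and the median SE of a difference 0.198. The split between higher and lower calls depended on the scaling. Quantile normalisation put 49.0% of the calls higher, centring each array on its median 86.9%, and the authors' own scaling, which gives the GD9:12 arrays a higher mean than the GD9:00 arrays, 99.4%. Under those scalings the median of all tested probes moved to 0.07 and 0.33, and that of the brightest 25% of probes from 0.04 to 0.88 and 1.14, so that differences of bright gene families are relative to the other bright probes. The direction of single called genes was steadier: 283 of the 304 kept their sign under the authors' scaling and 299 after median centring. Without GD9:00 replicate 3 the counts were 59 higher and 133 lower, without GD9:00 replicate 1 they were 60 and 72, and without GD9:12 replicate 4 they were 66 and 66. Without GD9:12 replicates 1 and 3 the lower calls numbered 100 and 95. Of the genes named at the head of this paragraph, Zic1, Fabp7, Myl7, Pomp and Eef2 kept their calls under every scaling, setting and left-out array. The others lost theirs in at least 1, with adjusted p up to 0.0643 (En2), 0.0514 (Fgf18), 0.0697 (Hba-a1), 0.240 (Actc1), 0.126 (Krt18), 0.216 (Ldha) and 0.0704 (Atp5b).

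**Figure D1:**
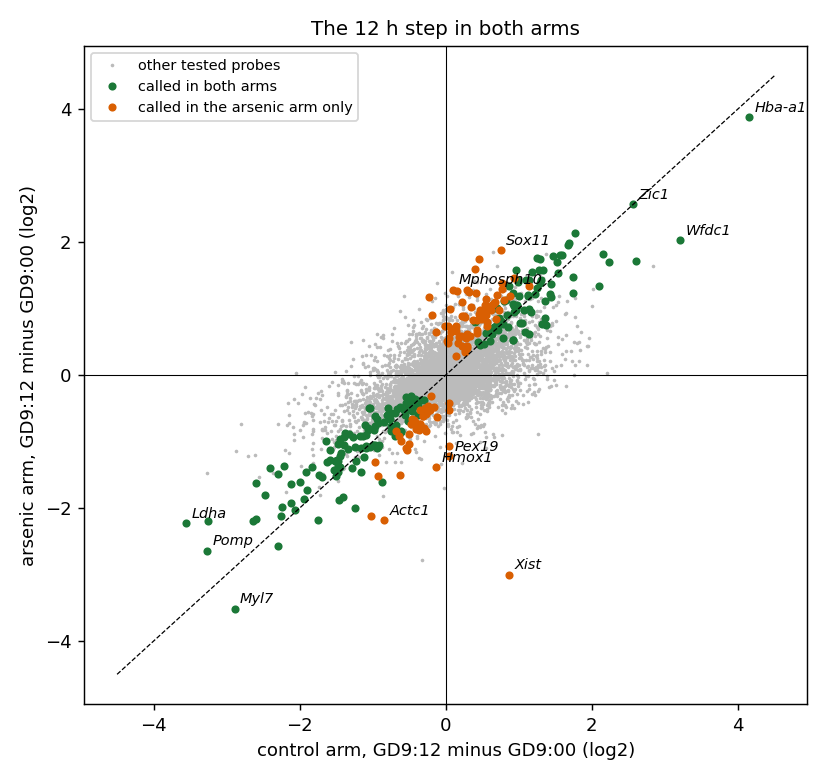
Difference between GD9:12 and GD9:00 (log2) in the arsenic arm (vertical axis) against the control arm (horizontal axis), 1 point per tested probe, with the dashed line marking equal differences. Of the 304 probes called in the arsenic arm, 195 were called in the same direction in the control arm (green) and 109 were not called there (orange).

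Zic1, a transcription factor of dorsal neural progenitors, gave the lowest adjusted p of all probes. It read 7.37, 7.66 and 7.14 at GD9:00 and 9.06, 10.13, 10.35 and 10.28 at GD9:12, so that every later array lay above every earlier one and replicate 1 was the lowest of the later arrays. The difference was 2.57 ± 0.25 (log2, SE), a 5.92-fold rise, with an adjusted p of 4.11e-05. En2, which specifies the midbrain and anterior hindbrain, was tightly grouped at 7.50, 7.31 and 7.35 before and at 9.08, 9.14, 8.97 and 9.54 after (log2 difference 1.80 ± 0.35, adjusted p = 0.00752). Fabp7, a fatty-acid-binding protein of radial glia, went from 8.06, 7.93 and 7.25 to 8.57, 9.59, 9.49 and 9.54, with replicate 1 again the lowest of the later arrays (1.55 ± 0.29, adjusted p = 0.00522). Mab21l2, needed for eye and midbrain growth, read 7.37, 8.08 and 7.25 at GD9:00 and 8.26, 9.12, 8.73 and 9.86 at GD9:12 (1.43 ± 0.31, adjusted p = 0.0161). Its groups nearly touched, and its call was lost without GD9:00 replicate 1 or 3 (adjusted p of 0.0785 and 0.0741). Sox11, a progenitor and early neuronal factor, read 10.85, 10.64 and 8.63 before and 11.73, 12.36, 11.59 and 11.98 after. Its difference of 1.88 (adjusted p = 0.0185) rested on GD9:00 replicate 3, which was low: without it the difference was 1.17 and the adjusted p 0.0836. The call was also lost without GD9:12 replicate 2 or 4 (0.0514 and 0.0520), and the other Sox11 probe differed by -0.09. Otx2, the homeobox gene of forebrain and midbrain, fell from 8.79, 8.69 and 8.42 to 7.71, 7.97, 7.79 and 8.01 (-0.76 ± 0.17, adjusted p = 0.0173), with a gap between the stages on every array. Its call was lost without GD9:00 replicate 1 or 2 (adjusted p of 0.0942 and 0.0536).

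Of the forebrain and midbrain patterning genes, 14 were tested: En2 and Mab21l2 rose and Otx2 fell, 10 lay above 0, and the median difference was 0.27 against -0.02 over all probes. Of 18 neural progenitor genes, Zic1, Fabp7 and Sox11 rose, none fell and the median was -0.04 (0.22 after median centring, 0.48 in the authors' scaling). Sox2, Pax6, Pax3 and Msi1 differed by 0.14, -0.16, -0.21 and -0.10 and did not pass. Of 25 neuronal differentiation genes, Myt1, a zinc finger factor of newborn neurons, rose from 7.39, 7.30 and 7.21 to 7.73, 7.70, 8.11 and 8.62 (0.74, adjusted p = 0.0433). Crmp1, a mediator of semaphorin signalling, fell by 0.84 on the log2 scale (adjusted p = 0.0298). Both calls were fragile: Myt1 lost its call when any of 5 arrays was left out, Crmp1 when any of 6 was (adjusted p up to 0.135 and 0.154). None of 15 hindbrain and Hox genes and none of 17 neural crest genes passed, against 3.88% of all tested probes. Their medians were 0.03 and -0.09 (the latter 0.19 after median centring).

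**Figure D2:**
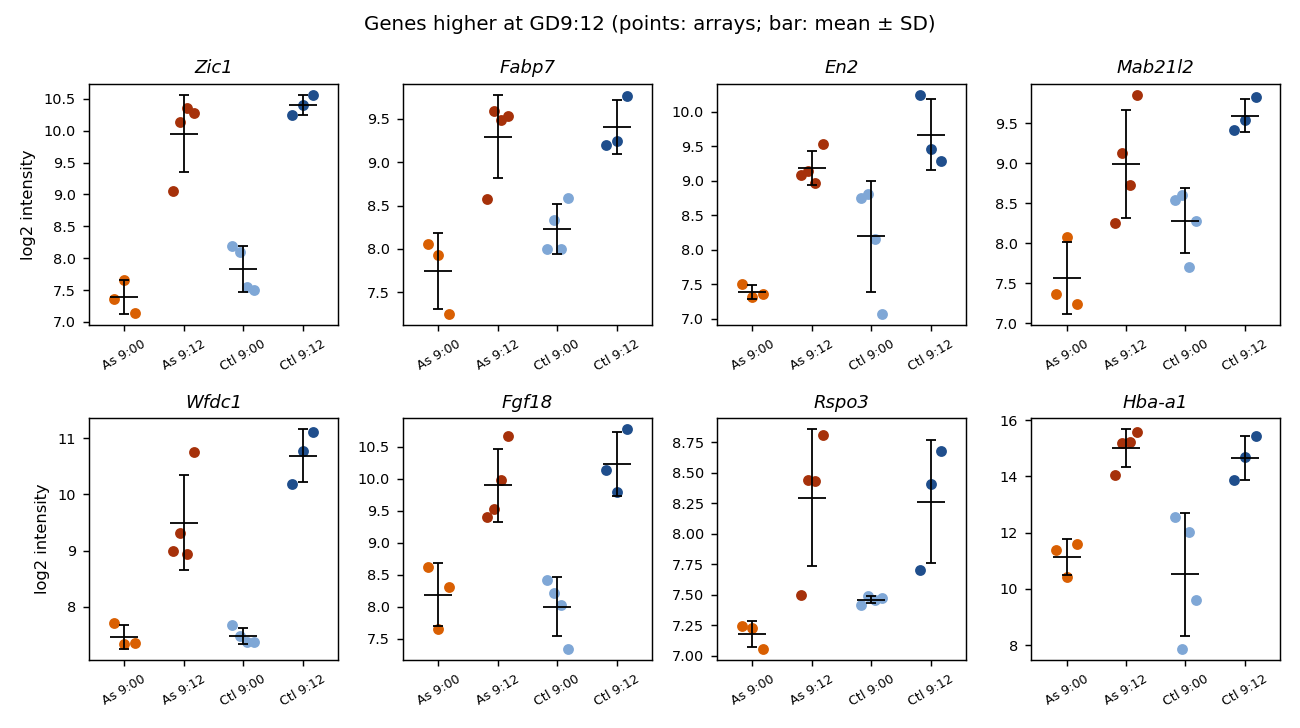
Log2 intensity of 8 genes that rose in the arsenic arm, for arsenic (As) and control (Ctl) arrays at GD9:00 and GD9:12. Points are arrays and bars the mean ± SD. For each gene all 4 arsenic GD9:12 arrays lie above the 3 arsenic GD9:00 arrays, as for Zic1 at 9.06 to 10.35 against 7.14 to 7.66.

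Among signalling genes, ligands of the FGF family moved in opposite directions. Fgf18, made at the midbrain-hindbrain boundary, read 8.62, 7.65 and 8.30 and then 9.41, 9.52, 9.98 and 10.67, a rise of 1.71 ± 0.33 (adjusted p = 0.00682). Fgf15, expressed in ventricular progenitors, fell from 9.03, 8.66 and 8.41 to 7.78, 7.74, 7.85 and 7.93 (-0.88 ± 0.16, adjusted p = 0.00549). These were the calls among 19 tested FGF genes. The receptors Fgfr1 and Fgfr3 differed by -0.25 and 0.03, and the feedback inhibitors Spry1 and Spry2 by 0.95 and 0.09, without passing. Of 36 Wnt pathway genes, Rspo3, a secreted enhancer of Wnt signalling, passed: it was even at 7.25, 7.23 and 7.06 and then spread over 7.50, 8.44, 8.44 and 8.81 (1.12 ± 0.24, adjusted p = 0.0144). That call was lost without GD9:00 replicate 3 or GD9:12 replicate 4 (adjusted p of 0.0541 and 0.0516). The dorsal ligands Wnt3a and Wnt4 differed by 0.80 and 0.39 with adjusted p of 0.0653 and 0.0540. Aldh1a1, which makes retinoic acid, rose from 7.14, 7.16 and 7.06 to 7.40, 8.02, 7.52 and 7.67 (0.53 ± 0.11, adjusted p = 0.0130), from the low end of the scale and as the call among 11 retinoic acid genes. The axon guidance genes Slit2 and Efna2 rose by 1.43 and 0.47, and Efnb2 fell by 0.43, on the log2 scale, among 23 tested. Leaving out an array ended these calls in 4, 2 and 3 of 7 cases (adjusted p up to 0.146, 0.104 and 0.0725). No gene of the sonic hedgehog (15), BMP and TGF-beta (33) and Notch (18) lists passed, against 3.88% of all tested probes.

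Other strong rises were outside the lists. Wfdc1, a secreted protease-inhibitor-like protein, read 7.71, 7.33 and 7.35 and then 9.00, 9.31, 8.93 and 10.74, with replicate 4 well above the rest (2.03 ± 0.33, adjusted p = 0.00233). Zeb1, a repressor of epithelial genes, went from 10.27, 10.77 and 10.39 to 12.79, 11.98, 12.59 and 12.49 (1.98 ± 0.33, adjusted p = 0.00341). Ak3, a mitochondrial adenylate kinase, and Cbx3, a heterochromatin protein, rose by 1.80 ± 0.23 and 1.76 ± 0.32 (adjusted p of 0.000287 and 0.00491). These 4 genes kept their calls without each of the 7 arrays. Yy1, Lix1, Usp42 and Dpp8 rose by 2.13, 1.82, 1.81 and 1.95, but each lost its call when any of at least 4 arrays was left out (adjusted p up to 0.135, 0.108, 0.171 and 0.0958). A second Dpp8 probe differed by 0.04. Over the 92 genes with a pair of tested probes, the probes had the same sign in 52, so a value stands for its probe.

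Markers of other tissues moved as well. In bulk tissue, fewer cells of a type and less RNA per cell cannot be told apart. Hba-a1, the adult-type alpha globin of red cells, read 11.39, 10.42 and 11.60 at GD9:00 and 14.05, 15.20, 15.23 and 15.57 at GD9:12, the largest rise among called genes: 3.88 ± 0.88 (14.7-fold, adjusted p = 0.0191). The call was lost without GD9:00 replicate 1 or 2 or GD9:12 replicate 4 (adjusted p up to 0.0697). Hbb-y, the embryonic beta-like globin, went from 7.41, 7.31 and 7.48 to 7.70, 8.86, 8.25 and 8.36, which did not overlap but did not pass (0.89, adjusted p = 0.0599). The red-cell regulators Gata1 and Tal1 differed by -0.05 and 0.14. Of 17 erythroid genes 1 passed, 9 lay above 0 and 8 below, and the median was 0.14, which turned to -0.06 without GD9:00 replicate 1. The summed normalised intensity of the list ran from 8301 to 15022 at GD9:00 and from 24591 to 60320 at GD9:12, a sum in which Hba-a1 is the brightest member. None of 18 endothelial genes and none of 23 head mesenchyme genes passed, against 3.88% of all tested probes. Their summed levels overlapped between the stages (4896 to 5925 against 4726 to 5517, and 7766 to 9283 against 8188 to 9024).

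Of 24 tested heart and muscle genes, 6 fell and none rose. Myl7, the atrial myosin light chain, read 12.07, 11.97 and 13.10 at GD9:00 and 8.86, 8.85, 8.59 and 9.15 at GD9:12, an 11.4-fold fall (-3.51 ± 0.56, adjusted p = 0.00233) and the largest among called genes. Actc1, cardiac actin, went from 11.55, 12.01 and 13.65 to 9.87, 9.76, 10.32 and 10.93 (-2.18 ± 0.57, adjusted p = 0.0381). For both genes replicate 3 was the highest array of GD9:00. The smooth muscle genes Cnn1 and Acta2 fell by 1.50 and 0.68 on the log2 scale (adjusted p of 0.0189 and 0.0173). On Acta2 (8.22, 7.97 and 7.79, then 7.25 to 7.38) replicate 3 was the lowest GD9:00 array. Myocd, the cofactor that drives cardiac and smooth muscle genes, fell by 0.61 and Tnni1, a troponin of slow muscle and embryonic heart, by 0.80 (adjusted p of 0.0185 and 0.0439). Of the 24 genes, 19 lay below 0, and on 12 every GD9:12 array lay below every GD9:00 array. Over all tested probes, 1.98% were called lower, and on 9.27% every GD9:12 array lay below every GD9:00 array. The median was -0.33, and it stayed below 0 after median centring (-0.28) and in the authors' scaling (-0.02), against 0.07 and 0.33 for all probes. The cardiac regulators Nkx2-5 and Gata4 differed by -0.76 and -0.32 and did not pass. The summed level of the list ran from 15060 to 32963 at GD9:00 and from 7281 to 10475 at GD9:12, and 24 of the 36 genes on the array were bright enough to test. Myl7 kept its call without each array, Actc1 lost it in 6 of 7 cases (adjusted p up to 0.198), and Cnn1, Acta2 and Myocd lost it in 3, 2 and 3 (up to 0.0934, 0.109 and 0.0959) and Tnni1 in all 7 (up to 0.198). The part that heart tissue in the dissections had in these values was not tested.

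The promoters of the leading pair are shown because muscle genes share a known element, the CArG box bound by serum response factor. Each is the 250 bases before the RefSeq transcription start (build GRCm38.p6), 5′ to 3′ on the gene's strand, with the CArG box in capitals. The search took the strict form alone, a pair of C, then 6 bases that are each A or T, then a pair of G. Myl7 lies at chr11:5898783-5899032 on the minus strand and Actc1 at chr2:114052876-114053125 on the minus strand.
Myl7: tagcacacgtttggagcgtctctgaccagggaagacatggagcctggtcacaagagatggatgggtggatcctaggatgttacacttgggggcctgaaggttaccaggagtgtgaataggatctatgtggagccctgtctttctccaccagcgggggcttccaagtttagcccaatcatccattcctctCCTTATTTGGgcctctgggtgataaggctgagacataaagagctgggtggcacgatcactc
Actc1: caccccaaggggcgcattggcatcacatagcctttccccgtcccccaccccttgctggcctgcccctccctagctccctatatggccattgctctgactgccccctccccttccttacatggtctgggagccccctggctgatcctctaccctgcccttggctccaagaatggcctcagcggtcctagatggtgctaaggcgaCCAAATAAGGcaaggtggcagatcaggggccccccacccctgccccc
The box starts 61 bases before the start of Myl7 and 47 before that of Actc1. The strict form, which reads alike on both strands, was found in this window of 1.47% of all 32851 RefSeq promoters. Counted by gene, that was 1.62% of all genes and 1.72% of tested genes. Among heart and muscle genes with a promoter window the strict form was found in 4 of 17 (Acta1, Actc1, Myl3 and Myl7), and in 2 of the 5 that fell. The windows of Cnn1 and Acta2, which also fell, held no strict form. Boxes with another letter in the middle, which serum response factor also binds, were not counted, so a window without the strict form may still hold one. A match is a description of letters and not evidence of binding.

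Among epithelial genes, both members of a keratin pair fell. Krt18, a keratin of simple epithelia, read 10.59, 10.11 and 10.98 and then 8.47, 9.07, 8.89 and 8.46 (-1.84 ± 0.33, adjusted p = 0.00466). Its partner Krt8 went from 7.88, 8.06 and 7.85 to 7.45, 7.34, 7.34 and 7.19 (-0.60 ± 0.13, adjusted p = 0.0173), so both keratins were lower on every later array. Cldn6, a tight junction protein of embryonic epithelia, fell by 1.12 on the log2 scale (adjusted p = 0.0310), a call lost in 6 of 7 cases (adjusted p up to 0.165). Krt8 lost its call without GD9:00 replicate 2 or GD9:12 replicate 4 (up to 0.0658). These 3 fell among 18 tested surface ectoderm genes, against 1.98% of all tested probes. Of the 18 genes, 10 lay above 0, and the median was 0.005 (-0.06 after median centring, 0.20 in the authors' scaling). Cdh1 and Epcam, the defining adhesion molecules of epithelium, differed by 0.01 and -0.01, and the list's summed level overlapped between stages (9957 to 14216 against 9976 to 11785). In the matrix list (32 tested), Col11a1 rose by 1.48 while Tnc and Serpinh1, the collagen chaperone, fell by 1.52 and 0.83 on the log2 scale (adjusted p of 0.0372, 0.0178 and 0.00412). Col11a1 lost its call in 6 cases (up to 0.179) and Tnc without GD9:00 replicate 3 (0.0980). Smoc1, a secreted calcium-binding protein, fell from 11.33, 11.56 and 11.64 to 9.63, 9.12, 9.12 and 9.44 (-2.18 ± 0.46, adjusted p = 0.0134).

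Genes of metabolism fell as well. Ldha, lactate dehydrogenase A, read 13.81, 13.56 and 12.21 and then 11.28, 10.99, 11.32 and 10.26 (-2.23 ± 0.41, adjusted p = 0.00522). Egln1, the oxygen sensor that marks HIF for degradation, and Ddit4, a hypoxia-induced inhibitor of mTORC1, fell by 0.60 and 0.99 on the log2 scale (adjusted p of 0.0126 and 0.0173), both calls being lost without GD9:00 replicate 1 (0.0780 and 0.0996) and that of Ddit4 also without GD9:12 replicate 4 (0.0603). They were 3 of 31 tested glycolysis and hypoxia genes, of which 8 lay above 0. Of all tested probes, 1.98% were called lower. The list median was -0.29, but 0.09 after median centring and 0.35 in the authors' scaling. The hypoxia genes Bnip3, Pgk1 and Vegfa differed by -1.20, -0.27 and 0.04 and did not pass. Tkt, transketolase of the pentose phosphate path, went from 12.31, 11.63 and 11.52 to 9.33, 9.30, 9.36 and 8.99 (-2.58 ± 0.64, adjusted p = 0.0312), a wide gap that nevertheless lost its call in all 7 cases (adjusted p up to 0.136).

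Pomp, the chaperone of proteasome assembly, read 11.55, 11.49 and 10.40 and then 8.47, 8.55, 8.65 and 8.34, a 6.23-fold fall (-2.64 ± 0.40, adjusted p = 0.00141). With the subunit Psma7 (-1.39, adjusted p = 0.0162) it was called among 34 proteasome genes, whose median was -0.39 (0.08 after median centring and 0.34 in the authors' scaling). Psma7 lost its call without GD9:00 replicate 1 (0.100). Over all tested probes, 1.98% were called lower and 1.90% higher. Of 52 tested oxidative phosphorylation genes, 4 fell and 1 rose. The ATP synthase subunits Atp5b (10.34, 10.49 and 10.22, then 8.63, 8.94, 8.86 and 8.41) and Atp5g2 fell by 1.64 and 2.17 on the log2 scale (adjusted p of 0.000136 and 0.00246), and the complex I subunits Ndufa7 and Ndufb2 by 1.92 and 0.66 (0.00522 and 0.0389). Cox6a1, of cytochrome oxidase, rose from 13.66, 13.31 and 13.97 to 14.84, 14.39, 14.51 and 14.47 (0.90 ± 0.17, adjusted p = 0.00693). The list median was 0.12, with 28 genes above 0. It turned to -0.21 without GD9:00 replicate 3 and reached 0.90 and 1.16 under the other scalings. Ndufb2 lost its call in 5 of 7 cases (adjusted p up to 0.224), and the other 4 genes kept theirs without each array.

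The translation machinery gave 5 falls and no rise among 33 translation factors and tRNA ligases. Over all tested probes, 1.98% fell and 1.90% rose. Eef2, the elongation factor that moves the ribosome along, read 9.81, 9.90 and 9.64 and then 7.76, 8.07, 7.84 and 7.48, each group tightly bunched (-1.998 ± 0.29, adjusted p = 0.000963). Wars, the tryptophan tRNA ligase, and Eif2s3x, Eif3c and Eif4a1, of initiation, fell by 0.92, 0.85, 0.93 and 1.31 on the log2 scale (adjusted p of 0.00246, 0.0105, 0.0430 and 0.0482). Eif2s3x is X-linked, the counterpart of Eif2s3y, and its part in the sex difference was not tested. The list median was -0.23, but 0.03 after median centring and 0.28 in the authors' scaling. Of 48 ribosomal protein genes, Rps18, Rpl27a, Rpl9 and Rpl11 fell by 2.19, 1.99, 1.51 and 1.08 on the log2 scale and Rpl8 rose by 1.34 (adjusted p of 0.0144, 0.00491, 0.00491, 0.0167 and 0.0482). The median of the list was -0.26, against 0.62 after median centring and 0.88 in the authors' scaling, so a direction for the family depends on the scaling. Eif4ebp1, the translational brake under mTORC1, fell from 10.53, 9.89 and 10.11 to 8.03, 8.43, 8.02 and 7.77 (-2.12, adjusted p = 0.0372), a call lost in all 7 cases (up to 0.147). Eif3c and Rpl8 lost their calls in 6 cases each (up to 0.179 and 0.237), Eif4a1 in all 7 (up to 0.159), Eif2s3x without GD9:00 replicate 1 (0.0575), and Rps18 and Rpl11 in 3 each (up to 0.0731 and 0.0602). Surf4, an ER cargo receptor, Jmjd6, a lysyl hydroxylase of splicing factors, and Atp5g2 fell by 2.12, 2.03 and 2.17 and kept their calls without each array.

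**Figure D3:**
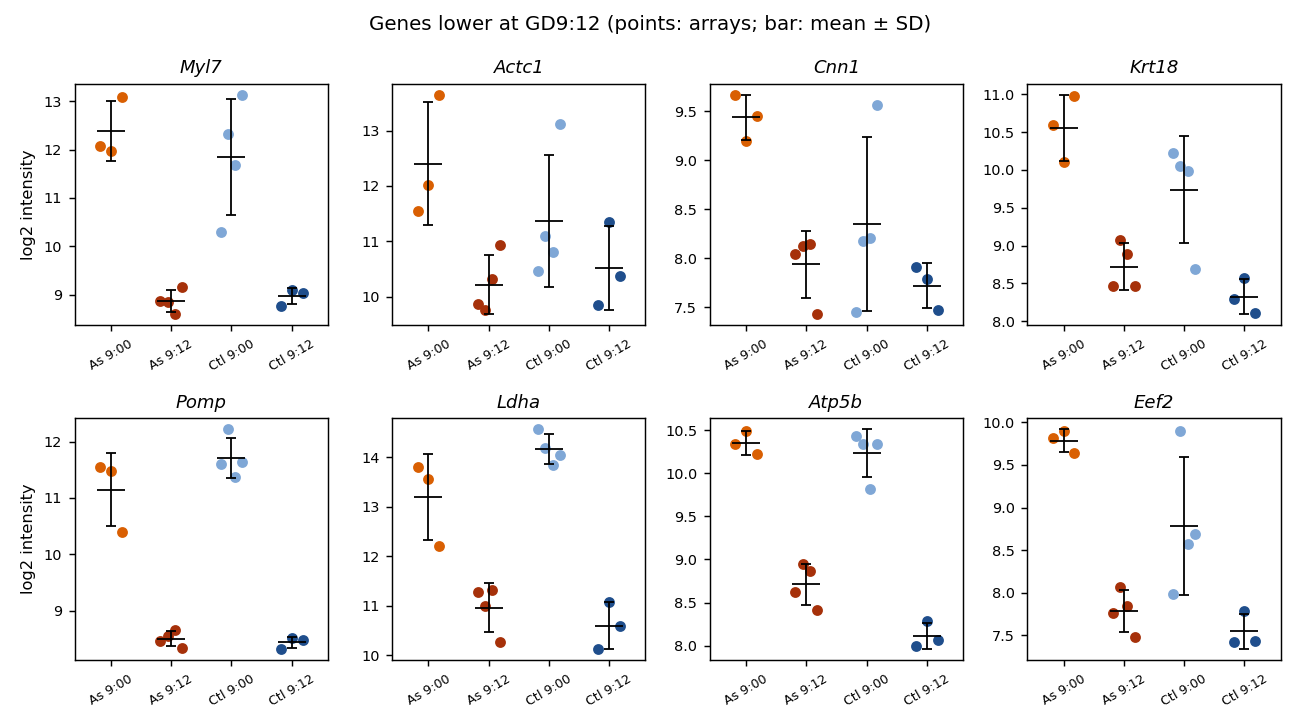
Log2 intensity of 8 genes that fell in the arsenic arm, for arsenic (As) and control (Ctl) arrays at GD9:00 and GD9:12. Points are arrays and bars the mean ± SD. On Myl7 the GD9:12 arrays of the arsenic arm lie between 8.59 and 9.15, against 11.97 to 13.10 at GD9:00.

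Of the genes induced by stress, Hmox1, Atf5 and Asns fell, and several varied between the arrays of GD9:00. Hmox1, which degrades haem and is a sensitive marker of arsenic exposure, read 9.37, 7.55 and 9.20 at GD9:00 and 7.42, 7.31, 7.28 and 7.29 at GD9:12. Replicates 1 and 3 were high at GD9:00, and replicate 2 stood near the later arrays, which were almost identical. The difference was -1.38 ± 0.38 (adjusted p = 0.0465), and the call was lost in 6 of 7 cases (adjusted p up to 0.228). Chac1, an ATF4 target that degrades glutathione, was likewise lowest on replicate 2 at GD9:00, reading 8.45, 7.40 and 8.76 and then 7.58, 7.47, 7.54 and 7.39, and did not pass (-0.71, adjusted p = 0.115). Hspa1b, an inducible Hsp70 singled out after its values were seen, read 11.09, 8.51 and 11.35 and then 8.82, 9.67, 9.07 and 8.44 (-1.32, adjusted p = 0.138), again with replicate 2 low. Cdkn1a, the p53 target that halts the cell cycle, was lowest on replicate 3 at GD9:00: 8.43, 9.06 and 7.64 and then 7.42, 7.90, 7.61 and 7.16 (-0.85, adjusted p = 0.0778). In the arsenic arm at GD8:15, 3 h after the second dose, Hmox1 and Chac1 averaged 9.42 ± 0.82 and 8.97 ± 0.38 (SD, n = 4). At GD9:12 their means in the arsenic arm were 7.32 and 7.49, and in controls of that stage 7.33 and 7.56. The arsenic GD8:15 arrays carry title codes that start differently from those of the arsenic arrays at GD9:00 and GD9:12. Stage and code therefore coincide between GD8:15 and the later stages of this arm, and changes from GD8:15 were not tested.

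Atf5, a transcription factor induced when translation initiation is inhibited, fell from 9.07, 8.63 and 9.38 to 7.98, 7.45, 8.03 and 8.25 (-1.09 ± 0.19, adjusted p = 0.00411) and kept its call without each array. Asns, asparagine synthetase, fell from 11.31, 10.87 and 11.52 to 10.03, 10.01, 10.05 and 9.03 (-1.45 ± 0.35, adjusted p = 0.0253), with replicate 4 far below the other later arrays, and lost its call without it (0.0822) or without GD9:00 replicate 1 or 3 (0.0942 and 0.0989). These were 2 falls and no rise among 30 ER stress and integrated stress response genes. Atf4, Ddit3 and Atf3, factors of the same response, differed by -1.17, -0.77 and -0.80, and the chaperones Sdf2l1 and Canx by 1.50 and 1.29, none of them passing. The list median was -0.23, with 7 genes above 0 (-0.005 after median centring, 0.25 in the authors' scaling). In the controls 4 genes of the list fell and 1 rose, with a median of -0.11. Of all tested probes, 1.98% fell in the arsenic arm and 7.44% in the controls. The Asns promoter is shown for the known ATF4 composite element, TGATGNAA, searched on both strands and given in capitals. It is the 250 bases before the start, chr6:7693210-7693459, minus strand, build GRCm38.p6.
Asns: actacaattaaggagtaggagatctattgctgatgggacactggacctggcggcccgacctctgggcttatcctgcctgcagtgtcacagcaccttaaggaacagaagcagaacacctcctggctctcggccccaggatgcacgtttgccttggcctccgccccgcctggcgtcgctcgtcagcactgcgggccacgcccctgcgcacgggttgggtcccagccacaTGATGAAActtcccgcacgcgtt
The element starts 23 bases before the start. It occurs in 3.45% of all RefSeq promoters in this window, or counted by gene in 3.91% of all genes and 2.80% of tested genes. On the list 5 of 28 genes hold it (Asns, Atf3, Chac1, Slc7a11 and Vldlr), of which Asns passed the test.

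Of 31 NRF2 and antioxidant genes, 4 fell and none rose: Tkt, Hmox1, Sqstm1, an autophagy receptor, and Gpx2, a glutathione peroxidase. Sqstm1 fell from 12.73, 12.29 and 12.74 to 11.25, 11.46, 11.26 and 10.27 (-1.53, adjusted p = 0.0439), and Gpx2 from 8.18, 8.08 and 8.19 to 7.64, 7.65, 7.75 and 7.89 (-0.41, adjusted p = 0.0326). Gpx2 turned to 0.02 in the authors' scaling, and the calls were lost in 7 and 6 of 7 cases (adjusted p up to 0.147 and 0.121). The NRF2 targets Gclc, Prdx1, Txnrd1 and Nqo1 differed by -0.91, -1.20, -0.42 and -0.09 without passing. The list median was -0.24 (-0.09 after median centring, 0.17 in the authors' scaling). In the controls 4 genes of this list fell and 1 rose, with a median of -0.06. Hspa8, the constitutive Hsp70, was the fall among 28 heat shock genes (-1.37, adjusted p = 0.0482; 0.04 in the authors' scaling), a call lost in 6 cases (up to 0.214). None of 29 p53 and apoptosis genes, 12 metal response genes, which include Mt2 (-0.36) and the arsenic methyltransferase As3mt (-0.22), or 28 immediate early genes passed. The share over all tested probes was 3.88%.

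**Figure D4:**
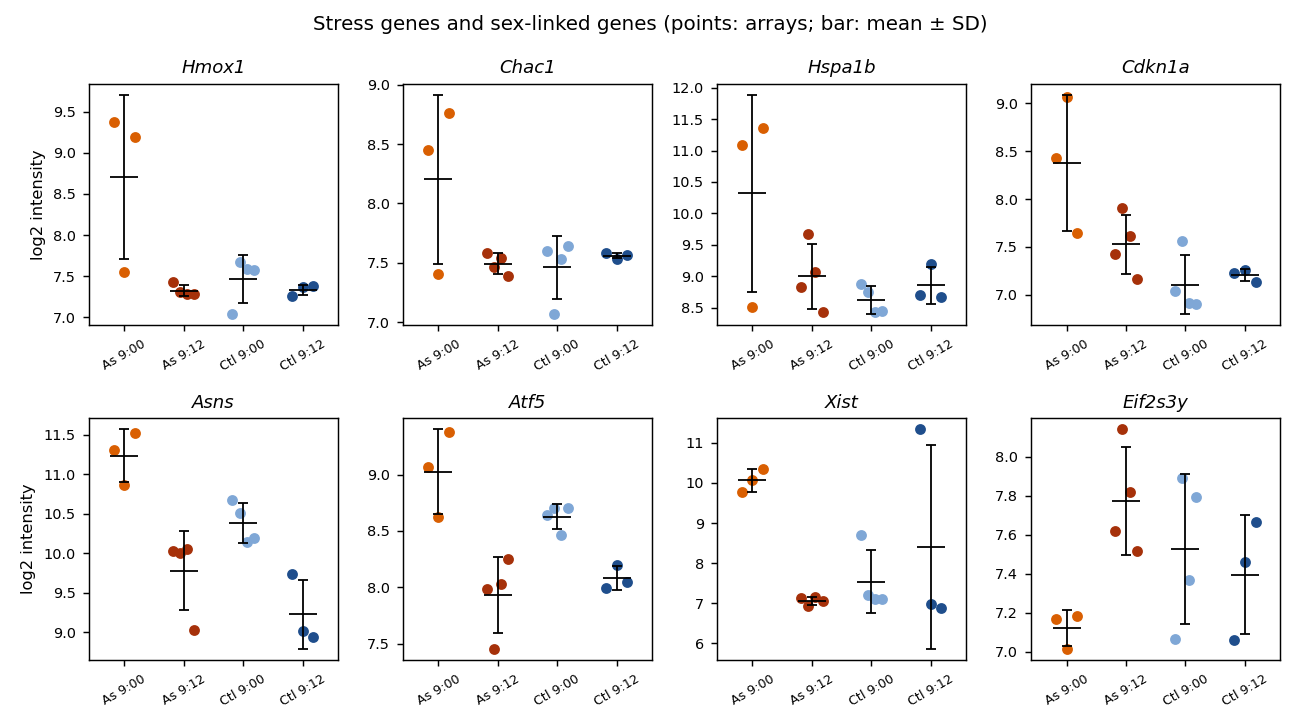
Log2 intensity of 6 stress genes and of the sex-linked Xist and Eif2s3y on arsenic (As) and control (Ctl) arrays at GD9:00 and GD9:12. Points are arrays and bars the mean ± SD. Hmox1, Chac1 and Hspa1b are high on replicates 1 and 3 of arsenic GD9:00 and low on replicate 2 (Hmox1 9.37, 7.55 and 9.20).

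Of 23 folate and one-carbon genes, Atic, which uses formyl-folate in purine synthesis, fell by 0.66 on the log2 scale (adjusted p = 0.0185, lost in 3 of 7 cases, up to 0.0871). Folr1, the main folate receptor of the neural tube, read 9.41, 9.09 and 10.49 and then 9.05, 8.55, 8.71 and 8.88, a difference of -0.87 that did not pass (adjusted p = 0.168) and was 0.03 in the authors' scaling. None of 26 neural tube closure genes passed, against 3.88% of all tested probes, and their median was -0.07 (0.01 after median centring). Among them Marcks, an actin-binding substrate of protein kinase C, differed by 1.32 (adjusted p = 0.0937). Of 45 DNA replication genes Mcm5, of the replicative helicase, fell by 0.50 on the log2 scale (adjusted p = 0.0437, lost in 6 cases, up to 0.208). Of 35 mitosis genes none passed. Mphosph10, a component of the ribosome assembly machinery, rose from 9.12, 9.83 and 9.46 to 10.62, 10.88, 11.05 and 10.48 (1.28 ± 0.27, adjusted p = 0.0131), the call among 25 ribosome assembly genes. It was lost without GD9:00 replicate 1 (0.0797).

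**Figure D5:**
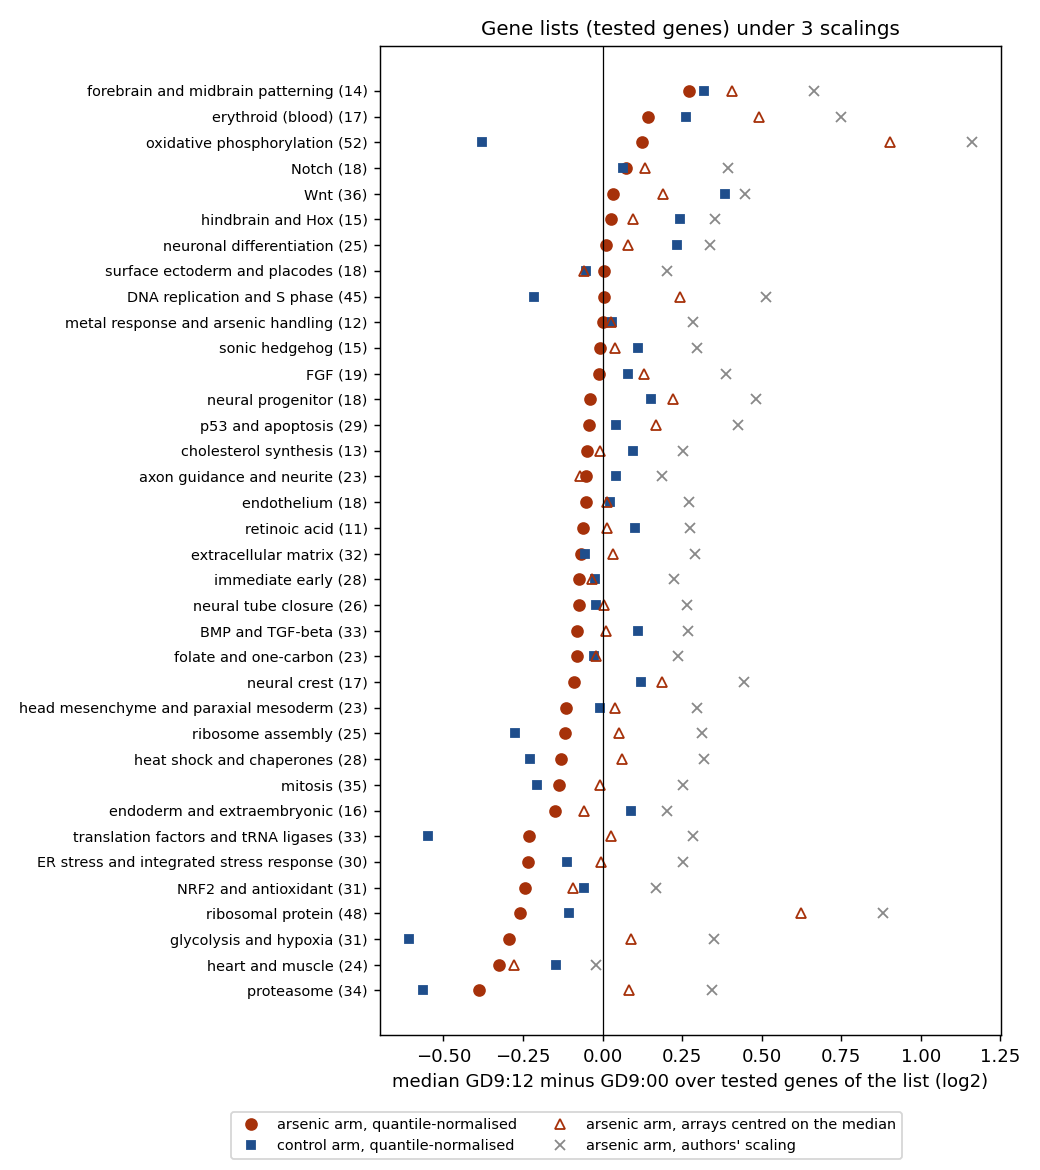
Median difference between GD9:12 and GD9:00 (log2) over the tested genes of 36 gene lists (number of genes in brackets), for the arsenic arm (circles) and the control arm (squares) after quantile normalisation, and for the arsenic arm under the other scalings (triangles and crosses). Heart and muscle stays below 0 in the arsenic arm under all 3 scalings (-0.33, -0.28 and -0.02), whereas ribosomal protein runs from -0.26 to 0.88.

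The same 12 h step was larger in number of calls in the controls, where 883 probes passed (11.3%), 300 higher (3.83%) and 583 lower (7.44%). Control GD9:12 replicate 1 has a title code that starts differently from those of the 7 arrays. On arrays whose codes start like theirs, controls gave 163 higher and 398 lower calls, arsenic 123 and 141. Runs of low values along the probe order covered 5.38%, 3.92% and 4.27% of probes on control GD9:00 replicates 1, 2 and 4. On the 7 arsenic arrays they covered up to 0.276%. With such runs masked, controls gave 300 and 680, arsenic 175 and 183. Of the 304 arsenic calls, 295 had the same sign in the controls and 195 passed there too, which is 64.1% of the arsenic calls and 22.1% of the control calls. No probe was called in opposite directions. Lists with falls went both ways between the arms. In the controls 8 glycolysis and hypoxia genes fell, 9 proteasome genes and 10 translation factors and tRNA ligases, against 3, 2 and 5 in the arsenic arm. The control medians of these lists were -0.61, -0.56 and -0.55. Of the heart and muscle genes, 2 fell in the controls against 6 in the arsenic arm. The shares of all tested probes that fell were 7.44% in the controls and 1.98% in the arsenic arm. Zic1 differed by 2.57 in both arms, Hba-a1 by 3.88 in arsenic and 4.15 in control arrays, Jmjd6 by -2.03 and -2.06, and Myl7 by -3.51 and -2.89. The arms share no arrays, but were normalised together.

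The difference between the steps themselves (arsenic step minus control step) passed for 0 of 7833 probes (0%) by limma. Its lowest adjusted p was 0.766, and 501 probes had an unadjusted p under 0.05, where 391.65 would be expected by chance. No gene is therefore shown to change differently in the arsenic arm. The median SE of this difference, 0.281, left modest differences undetectable. Large ones also went without a call: Xist (-3.88), Chst1 (-2.14) and Egr2 (2.08) each had an adjusted p of 0.766. The lack of calls therefore does not show that the steps were equal. The widest leads went both ways. Egr2, a hindbrain and immediate early factor, stayed between 7.10 and 9.18 in the arsenic arm with a step of 0.03, and fell by 2.05 on the log2 scale in controls (difference 2.08, unadjusted p = 0.00176). Chst1, a sulfotransferase, differed by -0.88 in arsenic and rose by 1.26 in control arrays (difference -2.14, unadjusted p = 0.000162). Xist gave -3.88, beside the mixed levels of the controls given above. Pex19, a peroxisome import factor, fell from 9.76, 9.34 and 9.52 to 8.06, 8.42, 8.37 and 8.43 in the arsenic arm (-1.22, adjusted p = 0.0130) and differed by 0.05 in controls, whose GD9:00 arrays read 7.73, 9.17, 7.91 and 7.73. Without control GD9:00 replicate 2 its difference of steps passed (-1.61, adjusted p = 0.00300), and without arsenic GD9:00 replicate 2 that of Hspa1b did (-2.45, adjusted p = 0.0363). Dtnbp1, Med11, Chn1 and Skp2, the F-box protein that degrades Cdkn1b, gave differences of 1.03, 0.84, 0.60 and 1.72. Their control steps were -0.77, -1.23, -0.71 and -2.87, and their arsenic steps 0.26, -0.39, -0.11 and -1.14. Pcp2 and Ccdc30 gave differences of -0.92 and -1.22. For Hmox1 and Wfdc1 the differences of steps were -1.25 and -1.18, with 95% intervals from -2.36 to -0.13 and from -2.15 to -0.22 before adjustment, and for Ldha 1.33, from 0.10 to 2.55. For Zic1 the interval ran from -0.74 to 0.74. The 9 called genes whose sign differed between arms were Eif2s3y, Sf3b6, Med6 and Bclaf1, higher in arsenic at GD9:12, and Gpx2, Cmtm7, Pde4a, Xist and Pex19, lower. Each of them lost its call without at least 1 of the 7 arrays, Pex19 without GD9:00 replicate 1 (0.0680), the others in 4 to 7 cases (up to 0.243). Cmtm7 turned in sign under both other scalings (0.11 and 0.37).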

How the data were processed

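RNA from 22 anterior neural tubes was amplified with T7 polymerase, labelled with biotin and hybridised to 1-colour CodeLink UniSet 10K arrays, per the labels' protocols. The deposited values are linear intensities that the authors scaled to the same mean within each stage, as the file shows. Scanner software and background correction are not given in the sources used here. Values of 1 or 2 (838, of which 32 to 48 per array on the 7 arrays) lie below the lowest other value, 56, and were set to missing. Intensities were log2-transformed and quantile-normalised over the 22 arrays, so the log2 values printed here derive from the deposited intensities, and differences are relative to the array. Of 10500 probes, 9378 carried 1 gene symbol in the array's annotation, 8 several and 1114 none, and symbols of 9323 were matched to RefSeq by gene identifier.

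Probes with at least 2 values in each group and a mean above the lowest 25% were tested (7833, of which 7286 had 1 symbol, for 7190 genes) in 1 limma model of 6 group means with empirical Bayes moderation (lmFit, eBayes) and Benjamini-Hochberg adjustment over all of them, at 0.05. The contrasts were GD9:12 minus GD9:00 in each arm and their difference. With 3 or 4 arrays a group, the number of arrays limits the precision. The script was tested on simulated data. A gene in a list stands by its brightest tested probe, and lists are described by counts and medians, without a set test.

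Genes were named by this rule: the 12 largest rises and 12 largest falls among called probes with 1 symbol and values on all 7 arrays, up to 4 members of lowest p per list, the 5 of lowest p in each direction of the difference of steps, and Folr2, Hmox1, Chac1, Xist and Eif2s3y. Further list members describe a list. Called genes of opposite sign between arms and Hspa1b were named after their values were seen. Samples, lists and genes were chosen with earlier results of these data known. R 4.3.3, limma 3.58.1, Python 3.11.15 and matplotlib 3.10.9 were used.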

Additional observations from a re-analysis of the deposited data

Results flagged for a closer look

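Among 99 named genes, 6 had an array at arsenic GD9:12 that lay far from the other 3 by Dixon's criterion, where chance gives about 1 in 20, or 4.95. Replicate 1 was low for Zic1 (9.06 against 10.13 to 10.35), Fabp7 (8.57 against 9.49 to 9.59) and Pex19 (8.06 against 8.37 to 8.43). Replicate 4 was low for Asns (9.03 against 10.01 to 10.05) and Cnn1 (7.43 against 8.04 to 8.15). Replicate 2 was high for Wnt4 (7.65 against 7.53 on the other arrays).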

How the results depend on the processing

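All 304 calls kept their sign when any 1 of the 7 arrays was left out. For 300 of them this outcome was fixed, as the arrays of the stages did not overlap. With 1 array left out, higher calls numbered 59 to 122 and lower calls 66 to 133. Of the 78 called genes named here, 27 kept their call in each of these 7 fits and 51 lost it in at least 1. The probes called higher numbered 1805 in the authors' scaling, 665 after median centring and 623 with array weights, and those called lower 11, 100 and 812. Of the same 78 genes, 42 lost their call in the authors' scaling and 33 after median centring. The authors' scaling turned the sign of Folr1 (0.035), Gpx2 (0.018), Hspa8 (0.039) and Cmtm7 (0.37), and median centring that of Cmtm7 (0.11). Fitting only the groups compared gave 271 calls, of which 159 were among the 304, and only arrays whose title codes start like those of the 7 gave 264, of which 193 were. In the control arm, higher and lower calls numbered 5506 and 103 in the authors' scaling, 745 and 619 after median centring, 771 and 1031 with array weights, 163 and 398 on the arrays with such codes, and 118 to 276 and 284 to 610 when 1 control array was left out. The difference of steps gave 1 call after median centring (Dtnbp1), with array weights (Pex19), without control GD9:00 replicate 2 (Pex19) and without arsenic GD9:00 replicate 2 (Hspa1b), so the range over single left-out arrays was 0 to 1. The cause of these moves was not tested, except that a left-out array lowers the number of samples. No paired analysis was possible because the labels give no replicate numbers. Signal limits the dim genes, whose log2 values lie near the low end of the scale.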

Other observations

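Zic1 and Wfdc1 had lower means at both earlier stages of the arsenic arm than at GD9:12, and rose between GD9:00 and GD9:12. Zic1 averaged 7.28 ± 0.12 (SD, n = 4) at GD8:15 and 7.39 ± 0.27 (SD, n = 3) at GD9:00, against 9.95 ± 0.60 (SD, n = 4) at GD9:12, and Wfdc1 averaged 7.69 ± 0.15, 7.46 ± 0.21 and 9.50 ± 0.85. Otx2 had its highest mean at GD9:00 (7.86 ± 0.41, 8.63 ± 0.19 and 7.87 ± 0.15), as did Ddit4 (7.85 ± 0.12, 9.64 ± 0.26 and 8.66 ± 0.36). The controls also had their highest mean at GD9:00 for Otx2 (8.00, 8.83 and 7.86) and Ddit4 (7.83, 8.95 and 8.33). The mean of Hba-a1 at GD8:15 in the arsenic arm (13.32 ± 1.43) lay between those of GD9:00 (11.13 ± 0.63) and GD9:12 (15.01 ± 0.66), but its arrays, at 11.58, 14.28, 14.68 and 12.73, overlapped both. These levels are descriptions and were not tested. In the arsenic arm the title codes at GD8:15 start differently from those at GD9:00 and GD9:12. Stage and code therefore cannot be told apart where GD8:15 is compared with the later stages of this arm.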
